A study of Rattus norvegicus with 62 samples.

Results

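Glutamate leaves the synapse by uptake into cells and is packed into synaptic vesicles for the next release, and the genes of these steps were read here on 62 expression arrays of rat brain. They are 6 genes: the uptake transporters Slc1a1, Slc1a2 and Slc1a3, the vesicular transporters Slc17a6 and Slc17a7, and Glul, which encodes glutamine synthetase. Every probe set whose only annotated gene symbol was one of these 6 was taken, which gave 13 of the 31099 probe sets on the array and all 6 genes of the 14218 named by a single symbol. Slc1a3 and Glul have 3 probe sets each, Slc1a1, Slc1a2 and Slc17a7 have 2 each, and Slc17a6 has 1.

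Male Wistar rats were dosed through a gastric tube 2 times a day for 90 days, and total RNA was taken from their brainstem, hippocampus or frontal cortex. One group of rats received phenytoin, a blocker of voltage-gated sodium channels, at 75 mg/kg, another group levetiracetam, a ligand of the synaptic vesicle protein Sv2a, at 150 mg/kg, and the remaining rats the control solution alone. The 9 groups of region and treatment have 7 arrays each, except 6 for control frontal cortex, whose array numbered 4 is not analysed here. The labels name no mutation, seizure model or age. The labels of the levetiracetam brainstem arrays 1 and 2 name both drugs; they were kept with levetiracetam, as their sample names state. Nothing in the labels says whether the regions of a treatment come from the same rats or how the tissue was prepared, so the p-values reflect only how these samples varied, which may be technical. The frontal cortex samples carry titles of another style, and a difference between cortex and another region cannot be told apart from a difference between sets of arrays.

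Glutamate released at a synapse is cleared mostly by astrocytes, through Slc1a2 (GLT-1) and Slc1a3 (GLAST), while Slc1a1 (EAAC1) is the transporter of neurons. Inside astrocytes glutamine synthetase turns glutamate into glutamine, which neurons take up and convert back. Slc17a7 (VGLUT1) and Slc17a6 (VGLUT2) then fill synaptic vesicles, the former mainly in cortical and hippocampal neurons and the latter mainly in subcortical ones.

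Levels are normalized log2 intensities, differences are on the log2(value + 16) scale, which understates changes of dim genes, and errors of differences are standard errors. The median probe set stood at 6.03. A probe set passed where its adjusted p from limma, over all 18625 probe sets tested in a comparison, was under 0.05. Levels of different probe sets are not compared with each other. All 13 probe sets entered the hippocampus, cortex and region comparisons and 12 entered the brainstem drug comparisons, where the dimmer Slc1a2 probe set (1369694_at) was left out with the dimmest probe sets of that region. That probe set lay below the array's median on 41 of 62 arrays, Slc1a3 1371130_at on 15 and Slc17a7 1368986_at on 11.

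Marker sums bore out the regions on the other arrays: 8 brainstem markers summed to 688 to 1266 in brainstem and to 57.3 to 262 elsewhere, and 8 frontal cortex markers to 6258 to 9282 in cortex and to 2465 to 3765 on the others except the array described next (4673). The 7 hippocampus markers summed to 1398 to 2485 in cortex and so overlapped with the hippocampus range given below. In brainstem they summed to 539 to 1182 (median 627), and the highest sum was in phenytoin brainstem, where the median was 652. The brainstem marker sum of 262 was in control hippocampus, where the median was 93.8. Striatum markers summed to 802 to 2021 in control cortex (median 996), to 796 to 1223 with phenytoin and to 839 to 1263 with levetiracetam. The part of such admixture in the cortex comparisons was not tested. 1 array went against its region label, which was seen after the values were examined. On the array labelled phenytoin hippocampus 7 the summed intensity of 7 measured striatum markers was 7769, against 514 to 767 on the other 20 hippocampus arrays. All 7 lay above every other hippocampus array, while the sum of 7 hippocampus markers was 901 against 2178 to 3112. The oligodendrocyte sum was 30995 against 15876 to 21500, and the astrocyte sum 48678 against 32662 to 41344. Of the 13 probe sets studied here, the 4 of Slc1a1 and Slc17a7 lay below all 20 other hippocampus arrays and 5 lay above all of them: 1 each of Slc1a2, Slc1a3 and Slc17a6, and 2 of Glul. The share of all probe sets that lay outside the other arrays was not counted, so these counts are not read as particular to the 6 genes. Of 22 other genes of glutamate and glutamine handling, 7 lay above and 3 below all other hippocampus arrays. Results that rest on phenytoin hippocampus are given with and without this array.

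Across regions, the vesicular transporters differed most. Of the 13 probe sets, 13 differed between brainstem and hippocampus in control rats, 4 higher and 9 lower in brainstem, where 56.4% of all probe sets tested passed. Between brainstem and frontal cortex 12 differed, 3 higher and 9 lower in brainstem, beside 58.9% of all. Between hippocampus and cortex 5 differed, 1 higher and 4 lower in hippocampus, beside 46.1% of all. For brainstem nearly the whole set passed, above the share of all probe sets, while the 5 of hippocampus against cortex were no larger a share than the background. These 3 comparisons share arrays. All come from bulk tissue, in which fewer cells of a type and less RNA per cell cannot be told apart.

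**Figure D1:**
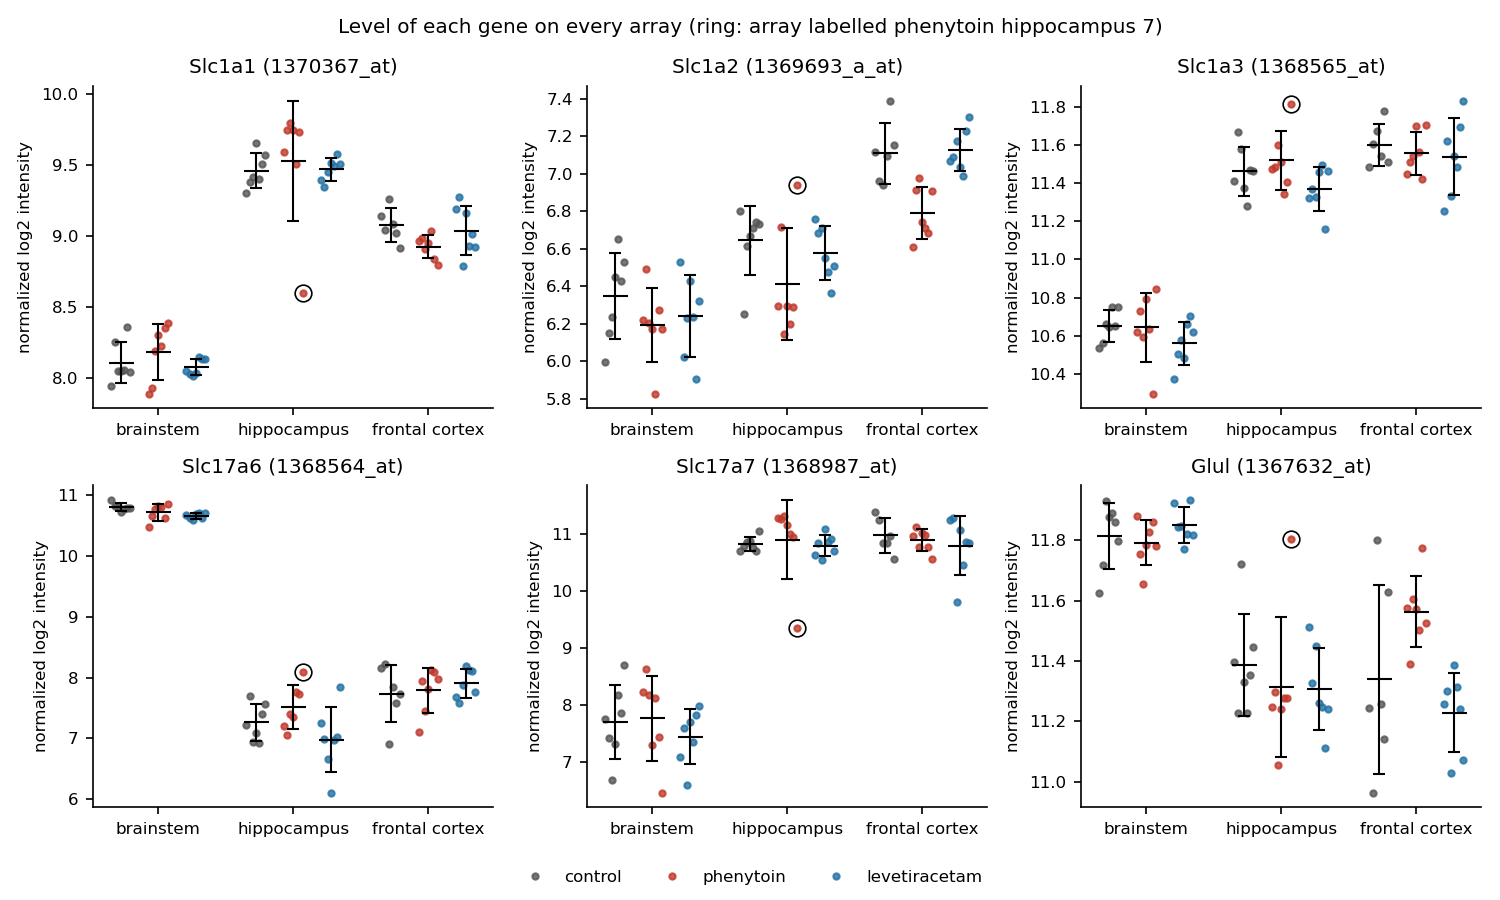
Normalized log2 intensity of the brightest probe set of each of the 6 genes on every array (points), by region and coloured by treatment, with the mean and SD of each group (bars); the ring marks the array labelled phenytoin hippocampus 7. Slc17a6 is high in brainstem and Slc17a7 in hippocampus and frontal cortex, under each treatment.

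Slc17a6, the vesicular transporter VGLUT2, was the brainstem gene of the set. Its level in control rats ranged from 10.72 to 10.92 in brainstem (median 10.79, n = 7), from 6.93 to 7.70 in hippocampus (median 7.22, n = 7) and from 6.91 to 8.22 in frontal cortex (median 7.79, n = 6). No brainstem array overlapped with either forebrain region, while hippocampus and cortex overlapped. Brainstem stood 11.6-fold above hippocampus (3.54 ± 0.16, adjusted p = 5.46e-28 by limma) and 8.37-fold above cortex (3.06 ± 0.17, adjusted p = 3.62e-24). Hippocampus stood below cortex by a smaller margin in control rats (-0.48 ± 0.17, adjusted p = 0.0183), a call lost without control frontal cortex array 1 (adjusted p = 0.0665) or 2 (0.0741). In levetiracetam rats the same margin was -0.92 ± 0.16 (adjusted p = 2.84e-06) and in phenytoin rats -0.27 (adjusted p = 0.180; -0.37 and 0.0662 without the array labelled phenytoin hippocampus 7).

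Slc17a7, the vesicular transporter VGLUT1, ran the other way. On its brighter probe set (1368987_at) control levels ranged from 6.69 to 8.71 in brainstem (median 7.76), from 10.69 to 11.04 in hippocampus (median 10.79) and from 10.55 to 11.38 in cortex (median 10.90). The brainstem arrays lay below all forebrain arrays, and their SD of 0.65 was wider than the 0.12 of hippocampus and the 0.30 of cortex. Brainstem stood 8.61-fold below hippocampus (-3.11 ± 0.24, adjusted p = 2.34e-17) and 9.58-fold below cortex (-3.26 ± 0.25, adjusted p = 1.63e-17). The other probe set (1368986_at) gave 6.46-fold and 9.62-fold. Hippocampus and cortex did not differ beyond the spread on 1368987_at (-0.15, 95% interval -0.66 to 0.36, adjusted p = 0.652) nor on 1368986_at (-0.58, interval -1.19 to 0.03, adjusted p = 0.117). Brainstem was lowest in both drug groups too: brainstem against hippocampus was -3.34 in levetiracetam rats and -3.13 in phenytoin rats (-3.38 without the array labelled phenytoin hippocampus 7).

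Since this pair showed the widest regional contrast, the RefSeq sequence just before the annotated gene start is shown for both genes (rat build GRCr8, plus strand). The Slc17a6 piece is chr1:110348197-110348446 and the Slc17a7 piece chr1:104785955-104786171, and both end at the base before the gene start. Capitals mark matches on either strand to GGGCGG, the core of the GC box, and to CANNTG, the E-box.
Slc17a6: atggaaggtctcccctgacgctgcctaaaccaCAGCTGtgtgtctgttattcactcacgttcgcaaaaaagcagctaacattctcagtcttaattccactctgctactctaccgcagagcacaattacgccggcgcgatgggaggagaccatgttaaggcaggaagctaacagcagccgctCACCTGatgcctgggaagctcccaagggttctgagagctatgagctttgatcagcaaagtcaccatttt
Slc17a7: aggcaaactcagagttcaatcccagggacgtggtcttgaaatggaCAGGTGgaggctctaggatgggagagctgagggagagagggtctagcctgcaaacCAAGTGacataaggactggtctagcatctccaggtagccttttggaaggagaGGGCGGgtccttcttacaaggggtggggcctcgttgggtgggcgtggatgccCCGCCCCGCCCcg

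The Slc17a6 piece of 250 bases holds 2 matches to CANNTG and 0 to GGGCGG; of the 33469 promoter windows of that length, 65.5% hold CANNTG and 30.5% GGGCGG. The Slc17a7 piece of 217 bases holds 3 matches to GGGCGG, of which the last 2 share a base, and 2 to CANNTG; the shares at that length are 26.9% and 60.6%. Neither piece holds TATAAA, the TATA box, on either strand, which 12.9% of windows at the longer and 11% at the shorter length do. GC content was 50.8% for Slc17a6 and 59.4% for Slc17a7, beside a median of 51.2% over all windows at either length. A match describes these letters only.

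Of the uptake transporters, Slc1a1, the neuronal one, was highest in hippocampus. Its control levels on 1370367_at ranged from 7.94 to 8.36 in brainstem (median 8.05), from 9.30 to 9.65 in hippocampus (median 9.42) and from 8.91 to 9.26 in cortex (median 9.06). No 2 regions overlapped. Brainstem stood 2.56-fold below hippocampus (-1.35 ± 0.10, adjusted p = 1.35e-18) and 1.96-fold below cortex (-0.97 ± 0.10, adjusted p = 2.47e-12), and hippocampus stood 1.3-fold above cortex (0.38 ± 0.10, adjusted p = 0.00178). The other probe set (1387932_at) had the same order, with -1.13 and -0.89 for brainstem, and its margin of hippocampus over cortex of 0.24 did not pass in control rats (adjusted p = 0.0986). On 1370367_at that margin was 0.43 in levetiracetam rats and 0.61 in phenytoin rats (0.76 without the array labelled phenytoin hippocampus 7), and it passed in each.

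Slc1a3, the astrocyte transporter GLAST, was lowest in brainstem on all 3 probe sets. On the brightest (1368565_at) control levels ranged from 10.54 to 10.75 in brainstem (median 10.65), from 11.28 to 11.67 in hippocampus (median 11.46) and from 11.48 to 11.78 in cortex (median 11.57). Brainstem overlapped with neither region, and hippocampus and cortex overlapped. Brainstem stood 1.76-fold below hippocampus (-0.81 ± 0.07, adjusted p = 7.95e-15) and 1.93-fold below cortex (-0.95 ± 0.08, adjusted p = 7.97e-17). The margins were wider on 1371130_at (3.57-fold and 2.98-fold) and narrower on 1388064_a_at (1.6-fold and 1.75-fold). In brainstem 1371130_at was dim, with a control mean of 5.80 under the median probe set of 6.03. Hippocampus and cortex did not differ in control rats on any of the 3 (adjusted p = 0.144, 0.0674 and 0.513), but on 1371130_at hippocampus stood higher in levetiracetam rats (0.46 ± 0.12, adjusted p = 0.000604).

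Slc1a2, the astrocyte transporter GLT-1, was measured by probe sets nearer the array median. On 1369693_a_at control levels ranged from 6.00 to 6.65 in brainstem (median 6.43), from 6.25 to 6.80 in hippocampus (median 6.71) and from 6.94 to 7.39 in cortex (median 7.10). Cortex lay above both other regions without overlap, and brainstem and hippocampus overlapped. Cortex stood 1.69-fold above brainstem (adjusted p = 2.84e-08) and 1.38-fold above hippocampus (adjusted p = 0.000476). Brainstem against hippocampus gave -0.30 ± 0.11 (adjusted p = 0.0151), which was lost without control brainstem array 1 (adjusted p = 0.0579). The dimmer probe set gave -0.57 ± 0.19 for that comparison (adjusted p = 0.0106), lost without control brainstem array 4 (adjusted p = 0.0706).

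Glul, the glutamine-making enzyme, was the other gene higher in brainstem, while Slc1a2 and Slc1a3 were lower there. Which cells hold the Glul RNA is not shown by bulk tissue. On 1367632_at control levels ranged from 11.62 to 11.93 in brainstem (median 11.86), from 11.23 to 11.72 in hippocampus (median 11.36) and from 10.96 to 11.80 in cortex (median 11.25). On 1386870_at they ranged from 11.82 to 12.12, from 10.56 to 11.19 and from 11.24 to 11.79 in the same order, without overlap between any 2 regions. Brainstem stood 1.35-fold above hippocampus on 1367632_at, 2.08-fold on 1386870_at and 1.94-fold on 1367633_at (adjusted p = 1.86e-05, 4.38e-14 and 3.34e-09). Against cortex the differences were 0.47, 0.47 and 0.30, and the last did not pass (adjusted p = 0.0515). The probe sets disagreed between the forebrain regions: hippocampus stood below cortex on 1386870_at (-0.59 ± 0.11, adjusted p = 4.53e-06) and 1367633_at (-0.66 ± 0.13, adjusted p = 4.55e-05), while 1367632_at gave 0.05 (95% interval -0.13 to 0.22, adjusted p = 0.693).

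**Figure D2:**
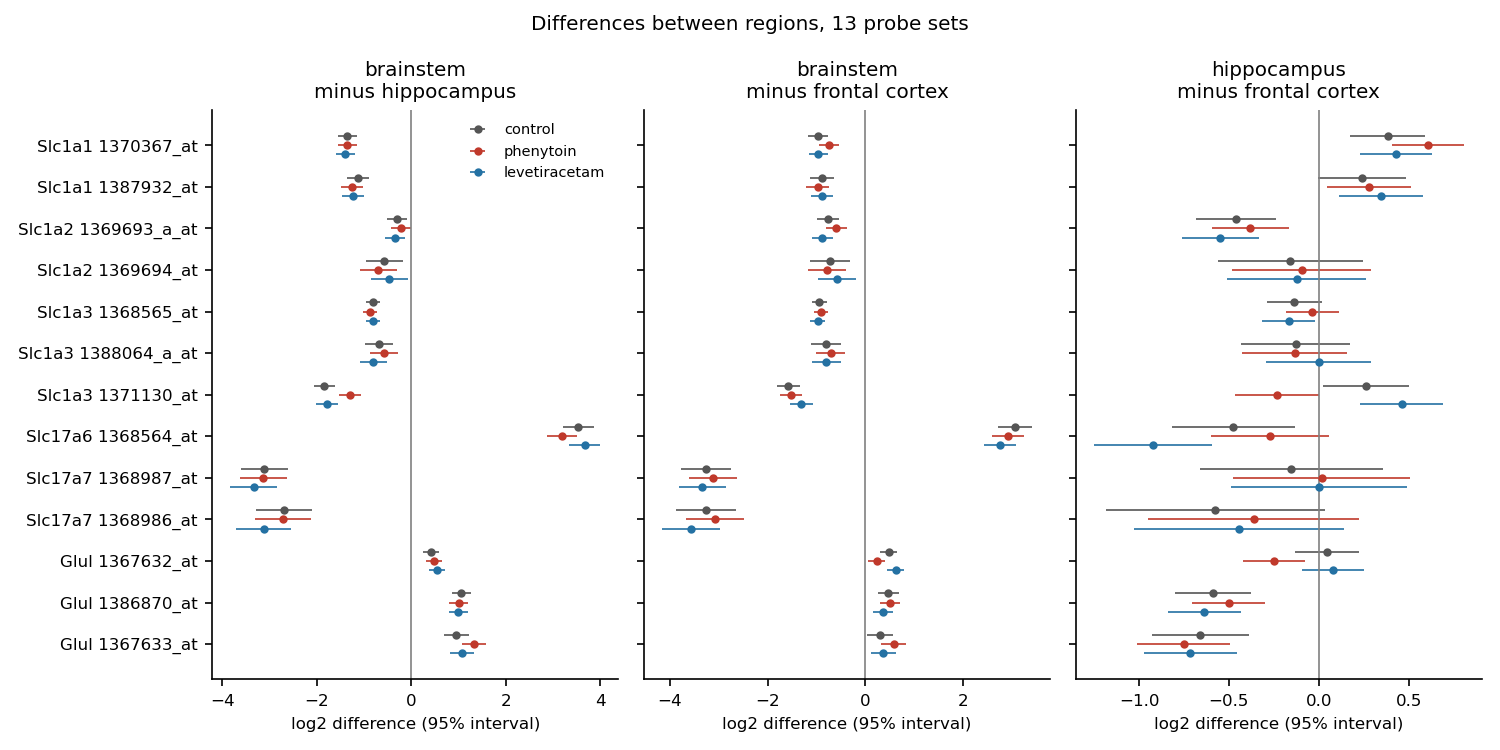
Log2 difference between regions for all 13 probe sets (points) with 95% intervals (lines), in control, phenytoin and levetiracetam rats, from the fit of all 9 groups; each panel has its own scale. Slc17a6 and Glul lie above 0 in brainstem against either forebrain region, and the probe sets of the other 4 genes lie below.

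Both drug groups showed these regional contrasts. Between brainstem and hippocampus 12 of the 13 passed in phenytoin rats, beside 55.1% of all probe sets (12 and 55.7% without the array labelled phenytoin hippocampus 7), and 13 in levetiracetam rats, beside 54.7%. Between brainstem and cortex 13 passed in each drug group, beside 58% and 62.7% of all. Between hippocampus and cortex 6 passed in phenytoin rats, beside 43.3% of all (6 and 43.3% without that array), and 7 in levetiracetam rats, beside 53.1%. The one that did not pass between brainstem and hippocampus in phenytoin rats was Slc1a2 1369693_a_at (-0.22, adjusted p = 0.0804; -0.13 and 0.302 without that array).

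Marker genes moved with the regions. Of 16 tested astrocyte markers, 13 were higher and 1 was lower in brainstem than in hippocampus in control rats (median difference 0.86, against 0.01 over all probe sets tested), and 14 were higher and 0 lower than in cortex (median 0.65). All 12 oligodendrocyte markers were higher in brainstem in both comparisons (medians 1.56 and 1.74), and all 8 markers of forebrain glutamatergic neurons were lower (medians -3.09 and -2.63). The astrocyte markers summed over the 17 measured to between 49890 and 55419 in control brainstem, 36128 and 41344 in hippocampus, and 32383 and 41178 in cortex. Glul was thus higher where the astrocyte and oligodendrocyte markers were higher, and Slc1a3 was lower there. Slc1a2 was lower there too, but its calls against hippocampus were each lost without a single array, as given above. The part of cell makeup in any of these differences was not tested.

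The other genes of glutamate and glutamine handling, a list of 25 of which 22 have a probe set with 1 symbol and 20 were tested between regions, were mostly higher in brainstem. Against hippocampus 13 were higher and 3 lower in control rats (median 0.49), beside 56.4% of all probe sets that passed in either direction. The largest differences were Slc25a13, the mitochondrial aspartate-glutamate carrier citrin (1.70), Slc1a5, a neutral amino acid transporter that carries glutamine (1.59), Slc38a2, a glutamine transporter (1.28), and Gls2, a glutaminase (1.14). Against cortex 11 were higher and 4 lower (median 0.34), beside 58.9% of all, led by Slc25a13 (1.95), Slc1a5 (1.62), Slc38a2 (1.06) and the glutamate dehydrogenase gene Glud1 (0.80). Hippocampus against cortex gave 1 higher and 7 lower (median -0.12), no larger a share than the 46.1% of all, with Gls2 at -0.78, the glutamine transporter Slc38a1 at -0.62, the aspartate aminotransferase gene Got1 at -0.53 and the carrier Slc25a12 at -0.35.

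Genes with the profile most like each member were sought over the 9 group means, each gene centred on its own mean, among 9927 genes, by the root mean square difference. For Slc17a6 the nearest were Fgf1, a fibroblast growth factor (0.158), Tppp3, a tubulin-binding gene (0.185), and the intermediate filament gene Prph (0.211), and 5 genes lay within 0.25. For Slc17a7 they were Fam107a (0.0960), the calcium sensor Hpcal4 (0.110) and the pentraxin receptor Nptxr (0.130), with 9 genes within 0.25. Without the array labelled phenytoin hippocampus 7 the 3 of Slc17a6 were the same, and those of Slc17a7 were Gas7, Hpcal4 and Fam107a. The flatter profiles had many neighbours within 0.25. Slc1a1 had 212, with the cell adhesion gene Chl1, Mzf1 and Mef2a nearest, and 182 without the array, with Chl1, Mzf1 and Smad3. Slc1a3 had 652 (Jakmip1, Map4k3, Cacna1b), and 684 without the array (Map4k3, Jakmip1, Ttpal). Slc1a2 had 1499 (Nhp2, Zdhhc13, Ap1s1), and 1349 without it (Ap1s1, Aadat, Atf2). Glul had 3586 (Ahcyl1, Rmi1, Rtkn), and 3418 without it (Ahcyl1, Rtkn, Atp5pf).

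With drug treatment, changes were mostly smaller than between regions, and few probe sets passed. Against control in phenytoin rats, single probe sets of Slc1a3 and Glul passed in hippocampus and of Slc1a2 and Glul in cortex. That was 2 of 13 in each region, beside 9.24% and 6.39% of all probe sets. The brightest probe sets of Slc1a3 and Glul did not pass. Without the array labelled phenytoin hippocampus 7 more passed in hippocampus, those of Slc1a1 and Slc17a7 upward and others of Slc1a2 and Glul downward. In brainstem 0 of the 12 tested probe sets passed for phenytoin against control, beside 0.0161% of all, and 2 had an unadjusted p under 0.05 by limma. These 2 were of Glul: 1386870_at ranged from 11.65 to 11.85 with phenytoin (median 11.76) against 11.82 to 12.12 in controls (median 12.03), a difference of -0.23 ± 0.05 (adjusted p = 0.183), and 1367633_at differed by -0.22 (adjusted p = 0.444). Glul 1367632_at differed by -0.02 (95% interval -0.12 to 0.07). The Gapdh 3' to 5' log2 ratio, a measure of RNA quality, was 0.005 on phenytoin brainstem 1. The mean of that group was 0.31 ± 0.14 (SD, n = 7). The count of 0 held with each of the 14 arrays left out in turn.

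Levetiracetam against control in brainstem gave 1 of 12, beside 9.24% of all. Glul 1386870_at fell, with levels of 11.61 to 11.96 (median 11.84) against the control range above, a difference of -0.16 ± 0.05 (adjusted p = 0.0496). The groups overlapped, and the other Glul probe sets differed by 0.04 and -0.03. The call was lost when any of 11 of the 14 arrays was left out (adjusted p = 0.0572 to 0.116): control 3 to 7 and levetiracetam 1 and 3 to 7. Without the arrays whose labels name both drugs it was -0.20 (adjusted p = 0.0412). Slc17a6, the transporter high in this region, did not pass at -0.15 ± 0.05 (adjusted p = 0.0630), although its 7 levetiracetam arrays (10.59 to 10.70, median 10.67) all lay below the 7 controls. The actin 3' to 5' log2 ratio, a measure of RNA quality, was 1.49 ± 0.11 (SD, n = 7) with levetiracetam and 1.38 ± 0.06 in controls, and with it as a covariate the Glul difference was -0.13 (adjusted p = 0.186), 1 of 6 settings of 10 in which the call was lost; with the values as deposited it was -0.05 (adjusted p = 0.700). In the same comparison 2 of 17 astrocyte markers were lower and 0 higher (summed 50023 to 53687 against 49890 to 55419 in controls), and 4 of 12 oligodendrocyte markers were lower and 1 higher (summed 34091 to 36959 against 33328 to 37733). The part of RNA quality or glial makeup was not tested. Phenytoin against levetiracetam in brainstem gave 0 of 12, beside 2.98% of all, and 1 at an unadjusted p under 0.05 by limma.

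In hippocampus a probe set of Slc1a3 and one of Glul were lower with phenytoin. For phenytoin against control 2 of 13 passed, beside 9.24% of all; without the array labelled phenytoin hippocampus 7 there were 7 of 13, beside 12.2%. Slc1a3 1371130_at ranged from 6.67 to 7.37 with phenytoin (median 7.04), from 7.25 to 7.81 in controls (median 7.68) and from 7.62 to 7.96 with levetiracetam (median 7.79). The phenytoin arrays lay below all levetiracetam arrays and below all controls but control hippocampus 7. The difference from control was -0.60 ± 0.10 (adjusted p = 0.00141), and -0.60 (adjusted p = 0.000991) without the array labelled phenytoin hippocampus 7, which stood at 7.04 in mid-range. The call held with each of the 14 arrays left out in turn.

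The other probe sets of Slc1a3 did not pass. On 1368565_at the difference was 0.06 (95% interval -0.09 to 0.20, adjusted p = 0.654), and 0.01 (adjusted p = 0.952) without that array. On 1388064_a_at it was -0.34 ± 0.13 (95% interval -0.62 to -0.07, adjusted p = 0.105), and -0.35 (interval -0.63 to -0.06, adjusted p = 0.0977) without it. The difference thus passed on 1 of 3 probe sets, with 1388064_a_at in the same direction. On 1388064_a_at the phenytoin mean was also below control in cortex (9.07 against 9.41) and in brainstem (8.36 against 8.60). Its phenytoin difference did not pass the test between regions (adjusted p = 0.930 by limma's F test).

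Glul 1367633_at ranged from 8.85 to 10.35 with phenytoin (median 9.55), from 9.60 to 10.37 in controls (median 10.16) and from 9.67 to 10.28 with levetiracetam (median 9.93). The highest phenytoin value was that of the array labelled phenytoin hippocampus 7, and the other 6 ranged from 8.85 to 9.62. The difference from control was -0.59 ± 0.16 (adjusted p = 0.0237), and -0.73 ± 0.13 (adjusted p = 0.00143) without that array. With all 7 arrays the call was lost without phenytoin hippocampus 3 (adjusted p = 0.0599), phenytoin hippocampus 4 (0.0537) or control hippocampus 2 (0.0501). Glul 1386870_at gave -0.18 (adjusted p = 0.428) with and -0.33 ± 0.09 (adjusted p = 0.0169) without the array labelled phenytoin hippocampus 7, and 1367632_at gave -0.07 (adjusted p = 0.663) and -0.15 (adjusted p = 0.157).

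**Figure D3:**
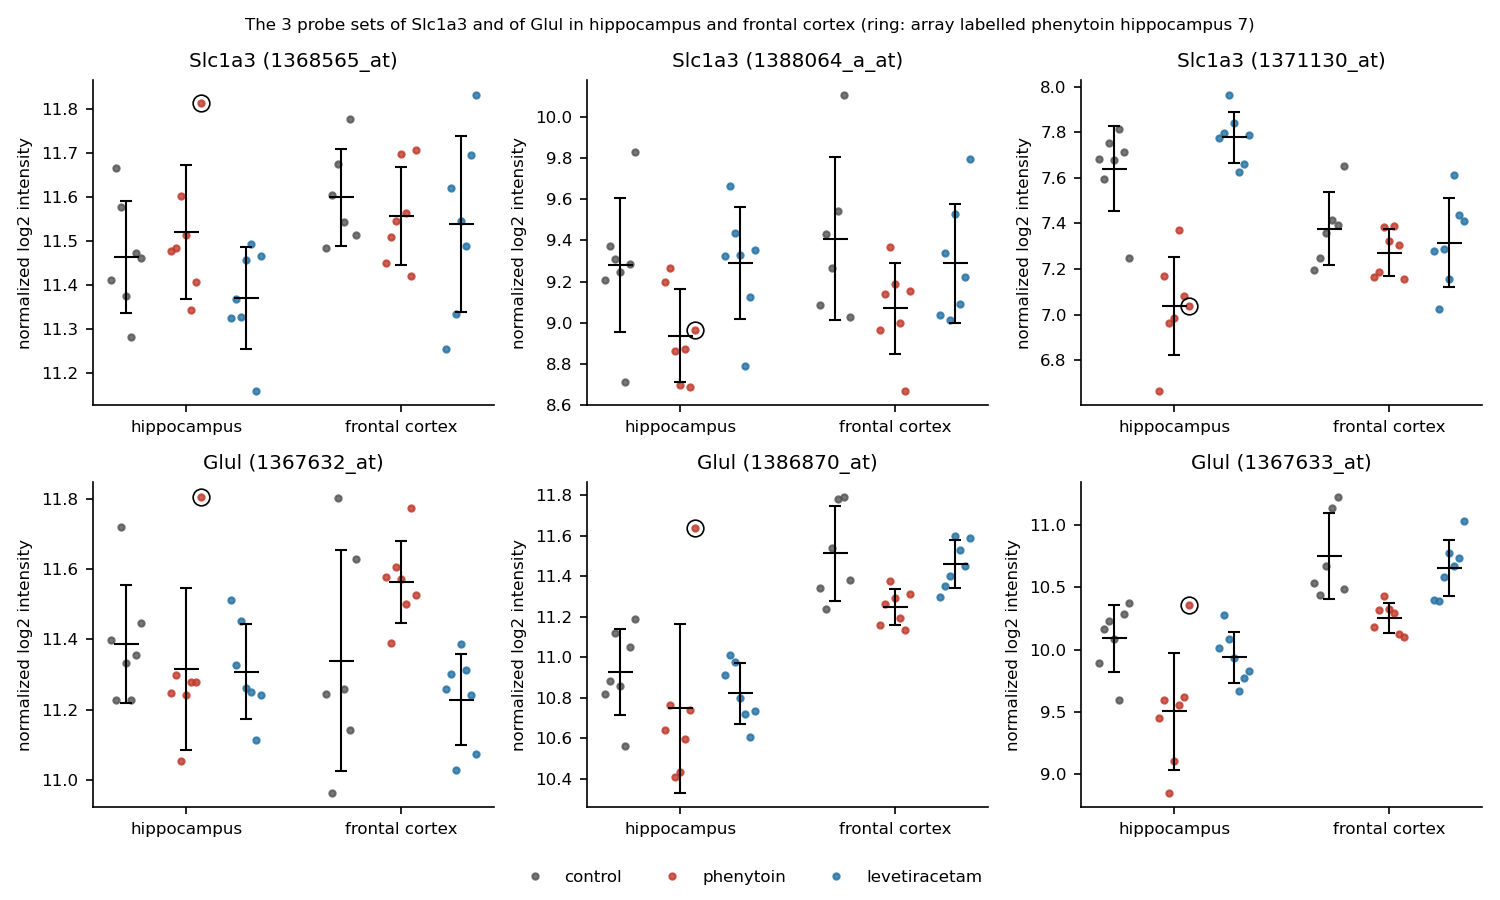
Normalized log2 intensity of the 3 probe sets of Slc1a3 (upper row) and of Glul (lower row) on every hippocampus and frontal cortex array (points), with group mean and SD (bars) and a ring around the array labelled phenytoin hippocampus 7. The phenytoin arrays lie low on Slc1a3 1371130_at in hippocampus and on Glul 1367633_at in both regions, and do not on 1368565_at or 1367632_at.

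Slc17a7 and Slc1a1, the neuronal genes, passed without the array labelled phenytoin hippocampus 7 and not with it. Slc17a7 1368987_at stood at 9.35 on that array and between 10.94 and 11.31 on the other 6 (median 11.20), against 10.69 to 11.04 in controls, and 10.53 to 11.07 with levetiracetam. The difference from control was 0.08 (adjusted p = 0.832) with it and 0.34 ± 0.08 (adjusted p = 0.00752) without it. The latter was lost in 1 fit of all 9 groups (adjusted p = 0.391). Further calls made without the array were lost in that fit too, as counted in the closing section. Slc17a7 1368986_at gave -0.10 (adjusted p = 0.838) and 0.21 (adjusted p = 0.263). Slc1a1 1370367_at stood at 8.60 on that array and between 9.50 and 9.79 on the other 6, and its difference was 0.07 (adjusted p = 0.769) with and 0.22 ± 0.06 (adjusted p = 0.0201) without it. Slc1a1 1387932_at gave 0.05 (adjusted p = 0.859) and 0.22 ± 0.07 (adjusted p = 0.0438). Slc1a2 1369693_a_at gave -0.23 (adjusted p = 0.209) and -0.32 ± 0.11 (adjusted p = 0.0447), and Slc17a6 did not pass either way (0.26 and 0.16).

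Among these 6-array results, 4 calls rested on further single arrays. Slc1a1 1370367_at was lost without phenytoin hippocampus 3 (adjusted p = 0.0594), as was Glul 1386870_at (adjusted p = 0.0556). Slc1a1 1387932_at was lost without phenytoin 2, 3 or 4 or control 1, 2, 5 or 6 (adjusted p = 0.0527 to 0.109). Slc1a2 was lost without phenytoin 1, 3, 4, 5 or 6 or any control but number 2 (adjusted p = 0.0535 to 0.115). Of 8 forebrain glutamatergic neuron markers 3 were higher and 0 lower without the array labelled phenytoin hippocampus 7 (median 0.15, against 0.00 over all probe sets), and 1 was higher with it. Of 16 astrocyte markers 1 was higher and 0 lower, with or without it (medians 0.10 with and 0.05 without), and their part in these results was not tested.

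RNA quality differed in this comparison. The Gapdh 3' to 5' log2 ratio was 0.39 ± 0.10 (SD, n = 7) with phenytoin, 0.24 ± 0.12 in controls and 0.27 ± 0.03 with levetiracetam in hippocampus. The phenytoin mean includes the array labelled phenytoin hippocampus 7, the highest of its group at 0.54. The control mean includes control hippocampus 1, the lowest of its group at 0.04. With the Gapdh ratio as a covariate Slc1a3 1371130_at gave -0.59 (adjusted p = 0.0509) with all arrays and -0.59 (adjusted p = 0.0210) without the array labelled phenytoin hippocampus 7. Glul 1367633_at gave -0.61 (adjusted p = 0.188) with all arrays and -0.60 (adjusted p = 0.0418) without it. The other calls made without the array were lost with this covariate, while the differences kept their direction. They were 0.17 and 0.13 for Slc1a1 1370367_at and 1387932_at (adjusted p = 0.221 and 0.391), -0.30 for Slc1a2 (0.227), 0.29 for Slc17a7 1368987_at (0.113) and -0.26 for Glul 1386870_at (0.193). The actin ratio was 1.45 ± 0.16 with phenytoin, 1.30 ± 0.23 in controls and 1.28 ± 0.12 with levetiracetam. It stood at 1.70 on the array labelled phenytoin hippocampus 7 and at 1.72 on control hippocampus 1, each the highest of its group. With the actin ratio as a covariate and all arrays, Glul 1367633_at gave -0.52 (adjusted p = 0.0571). The part of RNA quality in these differences was not tested further.

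Levetiracetam against control in hippocampus gave 0 of 13, beside 0% of all, and 0 of the 13 had an unadjusted p under 0.05 by limma, as against 1680 of all probe sets. The differences ran from -0.28 for Slc17a6 (95% interval -0.68 to 0.12) to 0.16 for Slc1a2 1369694_at (interval -0.09 to 0.41). Phenytoin against levetiracetam gave 1 of 13, beside 16.8% of all, and 4 of 13, beside 18.5%, without the array labelled phenytoin hippocampus 7. Slc1a3 1371130_at was the 1 in both cases, at -0.74 ± 0.10 with no overlap between the groups (adjusted p = 5.13e-05, and 4.71e-05 without that array). The other 3 without it were Slc17a7 1368987_at (0.37 ± 0.08, adjusted p = 0.00247), Slc1a1 1370367_at (0.22 ± 0.06, adjusted p = 0.0164) and Glul 1367633_at (-0.58 ± 0.13, adjusted p = 0.00283). With it they gave 0.11, 0.06 and -0.44 (adjusted p = 0.755, 0.777 and 0.0609). Of these 3, Slc17a7 was lost in 1 fit of all 9 groups (adjusted p = 0.308) and Slc1a1 with the Gapdh ratio (0.0978). Of 16 astrocyte markers 5 were higher and 1 lower with phenytoin than with levetiracetam, with or without that array.

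**Figure D4:**
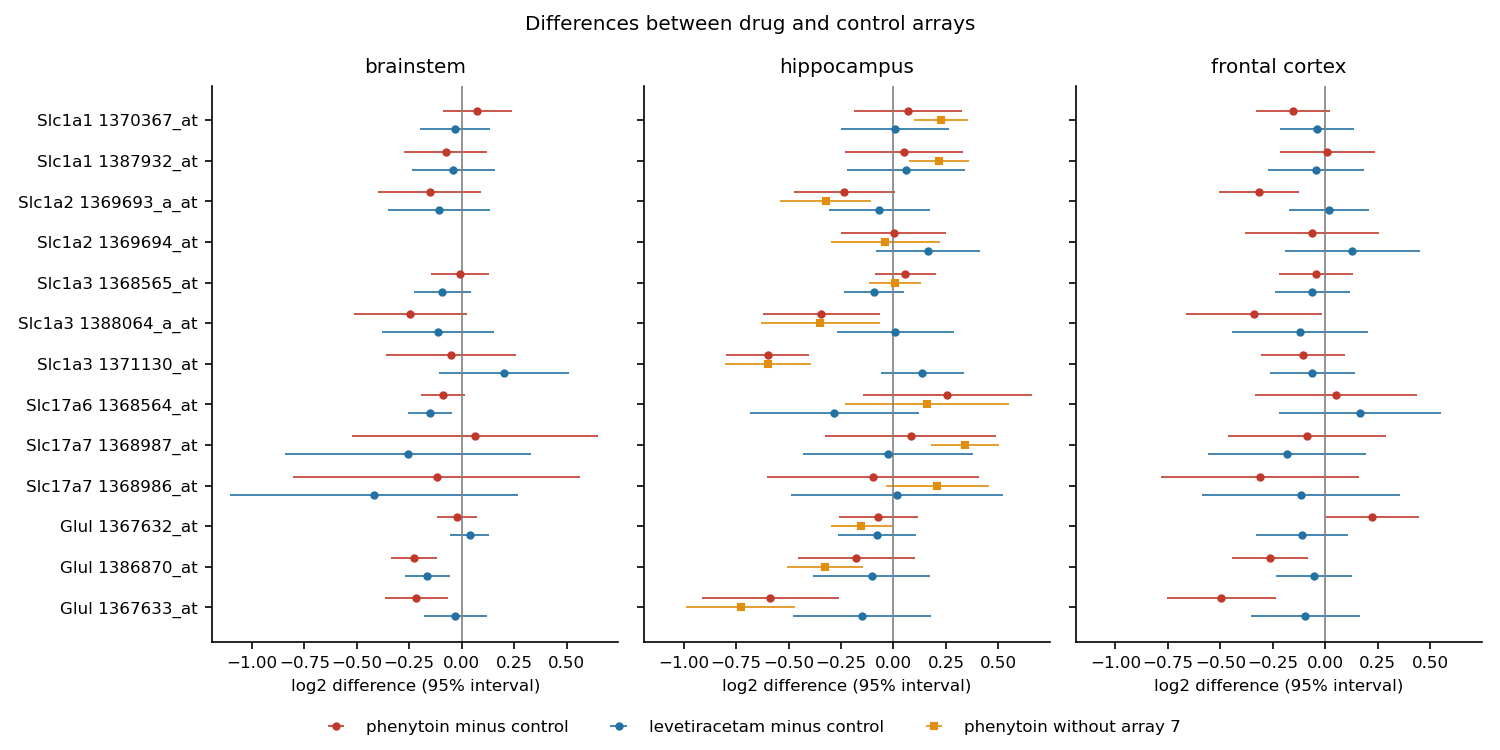
Log2 difference of phenytoin and of levetiracetam from control for each probe set in brainstem, hippocampus and frontal cortex, with 95% intervals, and for phenytoin in hippocampus also without the array labelled phenytoin hippocampus 7. Most intervals cross 0. Slc1a3 1371130_at in hippocampus and Glul 1367633_at in hippocampus and cortex lie farthest below it with phenytoin.

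In frontal cortex a probe set of Slc1a2 and the same Glul probe set were lower with phenytoin. For phenytoin against control 2 of 13 passed, beside 6.39% of all. Slc1a2 1369693_a_at ranged from 6.61 to 6.98 with phenytoin (median 6.74), from 6.94 to 7.39 in controls (median 7.10) and from 6.99 to 7.31 with levetiracetam (median 7.09). The phenytoin arrays overlapped slightly with controls and not with levetiracetam. The difference from control was -0.32 ± 0.09 (adjusted p = 0.0392) and from levetiracetam -0.33 ± 0.09 (adjusted p = 0.0154). The first was lost in 5 of 9 other settings (adjusted p up to 0.172) and when phenytoin array 1, 4, 5 or 6 or control array 1, 5, 6 or 7 was left out (adjusted p = 0.0552 to 0.111); the second held with each array left out. The dimmer probe set 1369694_at gave -0.06 (95% interval -0.38 to 0.26) against control.

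Glul 1367633_at ranged from 10.10 to 10.43 with phenytoin (median 10.29), from 10.44 to 11.23 in controls (median 10.60) and from 10.39 to 11.03 with levetiracetam (median 10.67). All 7 phenytoin arrays lay below the 6 controls. The difference was -0.49 ± 0.13 (adjusted p = 0.0172), lost without control frontal cortex 5 (adjusted p = 0.0594) or 6 (0.0556). Glul 1386870_at gave -0.26 ± 0.09 (adjusted p = 0.0732), and 1367632_at ran the other way at 0.22 ± 0.11 (adjusted p = 0.247).

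Phenytoin against levetiracetam in cortex gave 3 of 13, beside 10.8% of all. These were Slc1a2, above, Glul 1367633_at (-0.40 ± 0.12, adjusted p = 0.0346) and Glul 1367632_at in the opposite direction (0.34 ± 0.10, adjusted p = 0.0363). On the last, the phenytoin arrays (11.39 to 11.77, median 11.57) lay above all levetiracetam arrays (11.03 to 11.39, median 11.26). Glul 1367633_at was lost without phenytoin 1, 4, 5, 6 or 7 or levetiracetam 4, 5, 6 or 7 (adjusted p = 0.0516 to 0.0843), and 1367632_at in 5 of 9 other settings, and without phenytoin 1 or 3 to 7 or levetiracetam 3, 6 or 7 (adjusted p = 0.0506 to 0.0886). Levetiracetam against control gave 0 of 13, beside 0% of all, and 0 of the 13 at an unadjusted p under 0.05 by limma, as against 749 of all probe sets.

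The actin 3' to 5' log2 ratio was 1.57 ± 0.14 (SD, n = 7) with phenytoin in cortex, 1.32 ± 0.15 (n = 6) in controls and 1.26 ± 0.19 (n = 7) with levetiracetam. With it as a covariate Glul 1367633_at gave -0.31 (adjusted p = 0.231) and Slc1a2 -0.29 (adjusted p = 0.172) against control. Against levetiracetam they gave -0.17 (adjusted p = 0.439) and -0.30 (adjusted p = 0.1001), and Glul 1367632_at gave 0.32 (adjusted p = 0.128).

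Because probe sets of one gene disagreed, each dimmer probe set was also set against the brightest of its gene on the same array, an analysis added after the values were seen. In hippocampus 2 of 7 such differences changed with phenytoin against control, beside 10.7% of all probe set pairs: Slc1a3 1371130_at less 1368565_at by -0.66 ± 0.13 (adjusted p = 0.00551) and Glul 1367633_at less 1367632_at by -0.52 ± 0.13 (adjusted p = 0.0153). Without the array labelled phenytoin hippocampus 7 they were -0.61 (adjusted p = 0.0123) and -0.58 (adjusted p = 0.0118). In cortex 2 of 7 changed, beside 20.1% of all pairs: Glul 1367633_at less 1367632_at by -0.72 ± 0.18 (adjusted p = 0.00633) and 1386870_at less 1367632_at by -0.49 ± 0.14 (adjusted p = 0.0140). In brainstem 0 of 6 changed with phenytoin, beside 0.0528% of pairs, and 0 of 6 with levetiracetam, beside 3.72%; in hippocampus and cortex 0 of 7 changed with levetiracetam, beside 0% of pairs. With the Gapdh ratio as a covariate the hippocampal pairs gave -0.56 for Slc1a3 and -0.51 for Glul and no longer passed (adjusted p = 0.196 and 0.216). With the actin ratio the cortical pairs gave -0.52 and -0.36 and no longer passed (adjusted p = 0.110 and 0.161). Which part of each transcript the probe sets cover was not analysed here.

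Whether the drug effect differed between regions was tested directly. For phenytoin 1 of 13 passed, beside 12.2% of all: Slc1a3 1371130_at (adjusted p = 0.0252 by limma's F test), whose difference from control was -0.05 in brainstem, -0.60 in hippocampus and -0.10 in cortex. In brainstem this probe set was dim (control mean 5.80, under the median probe set of 6.03), and in cortex its control mean was 7.38. The part of dimness in the brainstem value was not tested. The call was lost without phenytoin hippocampus 1 (adjusted p = 0.0633), with the Gapdh ratio as a covariate (0.104) or with a floor of 1 in place of the pseudocount (0.0708). Without the array labelled phenytoin hippocampus 7 there were 3 of 13, beside 12.1%: Slc1a3 1371130_at (adjusted p = 0.0326), Slc1a1 1370367_at (0.0330) and Glul 1367632_at (0.0472), the latter pair at 0.441 and 0.180 with all arrays. Slc1a1 1370367_at differed from control by 0.22 in hippocampus, with phenytoin means of 8.92 against 9.07 in cortex and 8.18 against 8.10 in brainstem. Glul 1367632_at differed by -0.15 in hippocampus, with means of 11.56 against 11.34 in cortex and 11.79 against 11.81 in brainstem. For levetiracetam 0 of 13 passed, beside 0.0644% of all.

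Other glutamate and glutamine genes changed in few cases, in shares near those of all probe sets in phenytoin against control without the array and in cortex. For phenytoin against control in hippocampus 1 of 20 was higher and 0 lower, Slc38a1 (0.25 ± 0.06, adjusted p = 0.0135), beside 9.24% of all probe sets. Without the array labelled phenytoin hippocampus 7 there were 2 higher, Slc38a1 (0.22) and the mitochondrial aminotransferase gene Got2 (0.21), and 1 lower, Got1 (-0.63 ± 0.19, adjusted p = 0.0306), beside 12.2% of all. In cortex 1 of 19 was higher, Slc38a2 (0.32 ± 0.09, adjusted p = 0.0356), and 1 lower, Got1 (-0.35 ± 0.10, adjusted p = 0.0382), beside 6.39% of all. The medians of the list were 0.08 and -0.10 with all arrays, against 0.00 and -0.03 over all probe sets tested. In brainstem 0 of 22 passed for either drug, beside 0.0161% of all for phenytoin and 9.24% for levetiracetam. Levetiracetam gave 0 in hippocampus and 0 in cortex, beside 0% of all in each.

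Between the drugs, 4 of these 20 genes were higher and 1 lower with phenytoin in hippocampus, beside 16.8% of all probe sets, the largest being Got1 (-0.61), the glutamine transporter Slc38a3 (0.43), Gls2 (0.38) and Slc38a1 (0.22). Without the array labelled phenytoin hippocampus 7 there were 6 higher and 1 lower, beside 18.5% of all, the largest being Got1 (-0.66), the neutral amino acid transporter Slc1a4 (0.33), Gls2 (0.27) and the mitochondrial glutamate carrier Slc25a22 (0.27). In cortex Slc38a2 was higher (0.27) and Slc25a12 (-0.36) and Got1 (-0.31) were lower, 3 of 19 beside 10.8% of all.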

How the data were processed

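The values deposited by the authors are linear intensities of probe sets. Their mean after trimming 2 percent lay at 150.04 to 150.06 on the arrays without missing values, so they had been brought to a common level. How probes were summarized is not given in the sources used here. 1 array, phenytoin hippocampus 4, lacks values for 4799 probe sets, which were left missing. The median intensity of the values it has, 64.05, was the highest of the 62 arrays. Values were set to at least 0, transformed as log2(value + 16) and quantile-normalized over all 62 arrays, fitted on the 26300 probe sets without a missing value. After removal of 57 controls, 31042 remained: 20826 have 1 gene symbol, 436 several and 9780 none. A filter on mean level removed the lowest 40 percent before each fit and left 18625.

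Drug comparisons were fitted per region and region comparisons over all 9 groups with limma 3.58.1 in R 4.3.3 (intensity trend, two-sided, Benjamini-Hochberg, threshold 0.05), and the code was checked on simulated data. Median array intensities of 34.05 to 64.05 and the number of arrays limit the precision. Alternatives were no further normalization (the values as deposited), a floor of 1, no filter or 60 percent left out, array weights, the Gapdh or actin ratio as a covariate, a replicate block, all 9 groups in 1 fit, the arrays naming both drugs left out, and each array left out in turn. Leaving out the array labelled phenytoin hippocampus 7 throughout and the probe set pairs were added after the values were seen.

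The members and gene lists were chosen with earlier results of these data known. All probe sets of the 6 genes are named, at most 4 other glutamate and glutamine genes per comparison by the largest difference among those that passed, and the 3 nearest genes by profile. Promoter sequences are from RefSeq on GRCr8, whose table held Slc17a6 and Slc17a7; they matched by symbol.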

Additional observations from a re-analysis of the deposited data

Results flagged for a closer look

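A sample was looked at where it lay far from the rest of its own group, and chance alone marks about 1 in 20 groups. Of 117 groups of arrays, 13 were marked, 6 of them for the array labelled phenytoin hippocampus 7. That array was lowest for Slc1a1 (8.60 on 1370367_at and 7.61 on 1387932_at) and for Slc17a7 (9.35 on 1368987_at and 6.97 on 1368986_at), and highest for Glul (11.81 on 1367632_at and 11.64 on 1386870_at).

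The other 7 marked values were spread over 7 arrays. Slc1a1 1387932_at was high at 8.54 on phenytoin frontal cortex 5, and Slc1a2 1369693_a_at low at 6.25 on control hippocampus 2. Slc1a3 1371130_at was low at 5.26 on levetiracetam brainstem 5 and at 7.25 on control hippocampus 7, the control array that overlapped with the phenytoin range. Slc1a3 1388064_a_at was high at 9.03 on phenytoin brainstem 1 and at 9.14 on levetiracetam brainstem 2, 1 of the arrays whose labels name both drugs. Glul 1367633_at was high at 11.31 on control brainstem 5.

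The phenytoin difference of Slc1a3 1371130_at differed between regions by the test of that difference (adjusted p = 0.0252 by limma, 7 phenytoin arrays per region).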

How the results depend on the processing

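No called difference reversed its direction in any alternative run. Counts and the tests between regions carry no direction and could not reverse. Over settings other than single arrays left out, 249 of 278 counts stayed within 1.5 times, and 1117 of 1187 called values stayed past the threshold. Levetiracetam against control in brainstem (1) gave 0 with values as deposited, a floor of 1, no filter, the actin ratio, the replicate block or all 9 groups in 1 fit, and 2 with 60 percent left out, array weights or the Gapdh ratio. Phenytoin against control in hippocampus (2) gave 0 with the Gapdh and 1 with the actin ratio, and phenytoin against levetiracetam there (1) gave 4 with array weights and 3 with the replicate block or 9 groups in 1 fit. In cortex phenytoin against control (2) gave 1 with no filter, the block or 9 groups and 0 with the actin ratio, and phenytoin against levetiracetam (3) gave 1 with no filter and 0 with the actin ratio. The test of phenytoin differences between regions (1) gave 0 with a floor of 1 or the Gapdh ratio and 3 with array weights. Without the array labelled phenytoin hippocampus 7, phenytoin against control (7) gave 2 with the Gapdh ratio and 3 in 1 fit of 9 groups, and the test between regions (3) gave 1 with no filter and 0 with the Gapdh ratio. Pairs gave 0 with the Gapdh ratio in hippocampus and with the actin ratio in cortex. With single arrays left out the ranges were 0 to 1 (levetiracetam brainstem, also its pairs), 1 to 7 and 1 to 4 (phenytoin hippocampus against control and levetiracetam), 0 to 3 and 1 to 3 (the same in cortex), 0 to 3 (between regions), 3 to 6 and 4 to 6 (hippocampus without the array) and 2 to 3 (hippocampus pairs). The cause of these shifts was not tested.

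Whether equal replicate numbers of a treatment are the same rat was not settled. Same-numbered arrays of a treatment in different regions had a median correlation of deviations of 0.11 (-0.12 to 0.33, 36 of 61 over 0.1), and other numbers -0.02. Same-numbered arrays of different treatments in a region had a median of -0.01 (-0.49 to 0.54, 9 of 61 over 0.1). The main tests took all arrays as independent, so a pairing of regions, if there is one, was ignored. The replicate block was not the same in all fits. In the drug comparisons within a region it joined equal numbers of different treatments, which are different rats, so it does not test pairing. In the region comparisons it joined equal numbers of a treatment. In the drug comparisons the block moved the counts by over 1.5 times for levetiracetam brainstem (0), hippocampus between drugs (3) and cortex against control (1). Drug calls lost under the block were Glul 1386870_at in levetiracetam brainstem (adjusted p = 0.0771) and Slc1a2 1369693_a_at with phenytoin in cortex (0.104). Slc1a2 1369693_a_at was also lost in hippocampus without the array labelled phenytoin hippocampus 7 (0.0887), and Glul 1367632_at between drugs in cortex (0.0698). Under the block of the region comparisons, Slc1a1 1387932_at was lost between hippocampus and cortex of phenytoin rats (0.0503).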
